A study of Mus musculus with 10 samples.

Results

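The transcription factor p53 is held at a low level in most cells by MDM2, an E3 ubiquitin ligase that is itself a p53 target. When DNA breaks or other stresses stabilise p53, it binds response elements made of a pair of decamers and raises the transcription of genes that stop the cell cycle, start apoptosis or limit oxidative and metabolic stress. In the intestinal epithelium this programme is best known from irradiation, where it acts in the crypts. The genes described here are 10 widely used p53 targets, Cdkn1a, Ccng1, Mdm2, Bbc3, Bax, Fas, Eda2r, Phlda3, Trp53inp1 and Sesn2, chosen by name from the 35275 genes of the deposited table. All 10 were found in it, and 9 passed the filter on low values (0.1 FPKM or more on average in the 10 libraries), as did 15729 genes in all. FPKM divides the fragments of a gene by its length and by all fragments that the library has on genes, per kilobase and scaled to a fixed library size.

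RNA was measured in epithelial cells isolated mechanically from the jejunum of 10 mice of the C57BL/6 strain (C57BL/6J background in the study's methods). Every mouse carried VillinCreERT2, a Cre recombinase driven by the villin promoter of the intestinal epithelium that needs tamoxifen to enter the nucleus, and MYO5Bflox/flox alleles of the apical trafficking motor myosin Vb. The 3 control mice (numbers 2, 4 and 5) were given corn oil and remained uninduced. The 4 MYO5B-knockout mice (numbers 3, 5, 6 and 7) received a single 2 mg dose of tamoxifen and a BSA vehicle, and the 3 LPA-treated MYO5B-knockout mice (numbers 1, 4 and 5) received the same tamoxifen dose and 3 mg/kg of lysophosphatidic acid (LPA) by intraperitoneal injection. Cells were collected on day 4, and the study's methods give an age of 8 to 12 weeks at induction. The labels of LPA-treated mouse 1 name vehicle in one line and LPA in another, and its title, followed here, puts it among the LPA-treated mice. Control mice lacked tamoxifen, active Cre and the loss of Myo5b alike, so DNA damage by tamoxifen-activated Cre, tamoxifen itself and the loss of Myo5b cannot be told apart in any comparison with control. Only the comparison of LPA-treated with MYO5B-knockout mice holds tamoxifen and Cre constant.

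The libraries held 10949420 to 24470409 reads on genes, so that 1 read on a gene of 1 kb was worth 0.0409 to 0.0913 FPKM. Myo5b stood at 16.5, 32.0 and 26.1 FPKM in control mice 2, 4 and 5, at 10.5 to 13.6 FPKM across the MYO5B-knockout mice and at 10.3 to 11.7 FPKM across the LPA-treated mice, with no overlap between control and either tamoxifen-treated group. Control mouse 2 and MYO5B-knockout mouse 3 stood apart, with 12242 to 12601 genes detected and 17.4% to 18.05% of reads on mitochondrial genes, against 17309 to 18267 genes and 1.98% to 3.498% in the other 8 libraries. In addition, MYO5B-knockout mouse 3 and LPA-treated mouse 1 showed Xist (8.41 and 15.1 FPKM) but no read, 0 in each, on 4 Y-linked genes, although the labels give all mice as male. This is the pattern of female mice. Control mice 2, 4 and 5 had 0, 0 and 3 Xist reads and had reads on all 4 Y-linked genes. Sex was thus not balanced between control and tamoxifen-treated mice. For each tested member, the change between MYO5B-knockout and control mice is also given without each of these pairs of libraries, called the few-gene pair and the Xist pair. LPA-treated mouse 1 is in neither group of that comparison, so leaving out the Xist pair drops MYO5B-knockout mouse 3 and keeps control mouse 2. The median log2 change over all genes was 0.29 with all libraries, 0.21 without the few-gene pair and 0.49 without the Xist pair. The enterocyte markers Alpi, Fabp2, Sis and Vil1 were present in every library.

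The comparisons ask whether transcripts of these p53 targets differed after induction of the knockout, and in which branch of the response. The p53 decamers near the transcription starts of the genes were searched on both strands in the RefSeq promoter windows (250 bases before to 50 bases after a start, genome build GRCm38.p6). A match was a pair of decamers (10 bases each), with intact core letters, at most 13 bases between the decamers and at most 2 mismatches in the pair. Such a pair lay in 697 of 32851 windows (2.12%), and in those of Cdkn1a and Bax among the 9 member genes with a window. An exact single decamer lay in 8.36% of all windows and in 4 of these 9 genes, the others being Mdm2 and Ccng1. Counted by window, 2 of the 12 member windows held a pair (16.7%) and 4 held an exact decamer (33.3%). Trp53inp1 had no window in the table used and was not searched. The decamers are in capitals, and these sequences are shown because Cdkn1a and Bax carry a pair, Mdm2 and Ccng1 a single decamer, and Gtse1 and Sesn1 are p53 targets outside the 10 whose levels are described further on.
Cdkn1a exact pair, chr17:29090901-29090942, plus strand: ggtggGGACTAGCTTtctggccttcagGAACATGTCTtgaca
Cdkn1a pair, chr17:29090923-29090952, plus strand: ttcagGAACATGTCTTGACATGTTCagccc
Bax pair, chr7:45467074-45467104, minus strand: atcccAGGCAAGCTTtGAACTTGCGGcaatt
Mdm2 decamer, chr10:117710930-117710949, minus strand: gatagGAACTTGCCTagcga
Ccng1 decamer, chr11:40755457-40755476, minus strand: tgcccGGGCAAGCCTtggca
Gtse1 pair, chr15:85859940-85859969, plus strand: accggGAGCAAGTTGGGGCTTGCCTctgac
Sesn1 pair, chr10:41887248-41887280, plus strand: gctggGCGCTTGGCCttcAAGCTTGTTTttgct
The exact Cdkn1a pair, with 0 mismatches and 12 bases between its decamers, has its first capital letter 73 bases before the RefSeq start. The other printed Cdkn1a pair shares a decamer with it, begins 51 bases before the start, has touching decamers and holds 1 mismatch. The first capital of the printed Bax pair lies 201 bases before the start, with 1 base between the decamers and 2 mismatches. Another Bax pair, not printed, shares a decamer with it. That pair begins 216 bases before the start, with 5 bases between the decamers and 2 mismatches. Gtse1 also held further pairs that overlap the printed one. A match in letters is a description and no evidence of binding.

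None of the 9 tested p53 targets differed between MYO5B-knockout and control mice at an adjusted p of 0.05 (limma with Benjamini-Hochberg adjustment over all genes tested), where 316 genes did, which is 2.01% of those tested (177 higher and 139 lower; 222 higher and 376 lower after median-ratio scaling). At an unadjusted p of 0.05, Fas alone passed among the members, against 2764 of all genes. By edgeR no member was called, and by DESeq2 Fas was called. Of the members' log2 fold changes 8 were positive, of which those of Cdkn1a, Bax and Trp53inp1 turned negative after median-ratio scaling, and their median was 0.43 beside 0.29 over all genes tested. After the libraries were scaled by the median of their ratios, both medians moved down, to 0.14 for the members and 0.039 for all genes. The MYO5B-knockout and control groups overlapped for every tested member except Fas, and did not overlap for 17.2% of all genes.

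**Figure D1:**
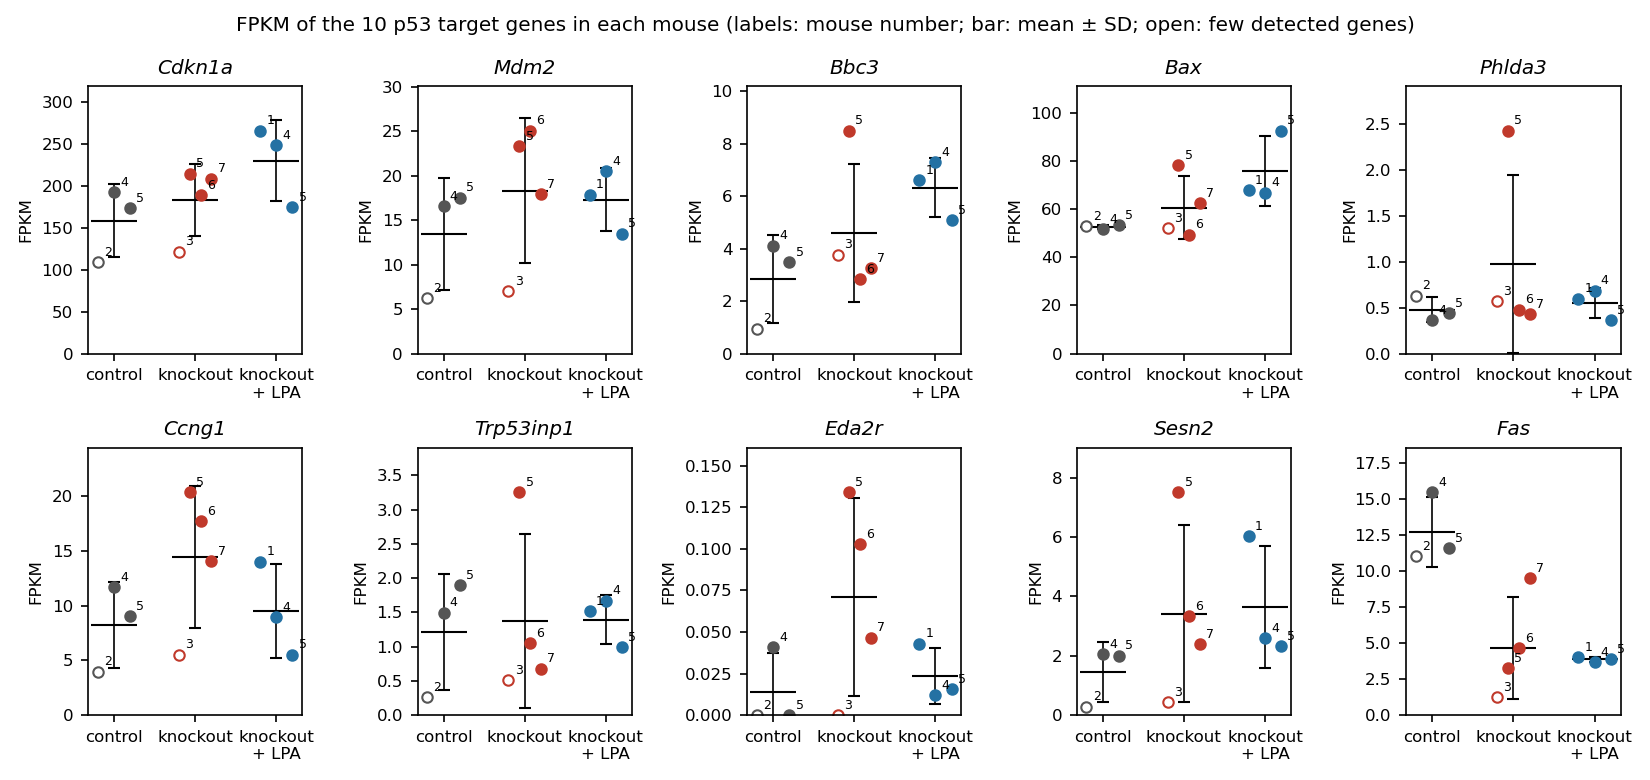
FPKM (linear axis from 0) of the 10 p53 target genes in each mouse, with mouse numbers beside the points, black bars for the mean ± SD of a group (n = 3 control, 4 MYO5B-knockout, 3 LPA-treated) and open points for the 2 libraries with few detected genes. For Fas all 7 tamoxifen-treated mice lie below the 3 control mice, whereas for the other genes the MYO5B-knockout and control points overlap.

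Among the cell cycle genes, Cdkn1a, which encodes the CDK inhibitor p21, was the most abundant member, with a mean of 189.6 FPKM over the 10 libraries. The gene (ENSMUSG00000023067) lies on the plus strand of chr17:29090979-29100722 in GRCm38, the build of all coordinates here. Cdkn1a stood at 109, 192 and 174 FPKM in control mice 2, 4 and 5, at 121, 214, 188 and 208 FPKM among MYO5B-knockout mice 3, 5, 6 and 7, and it measured 266, 248 and 175 FPKM among LPA-treated mice 1, 4 and 5. The lowest value of each of the first 2 groups came from its library with few detected genes, and the groups overlapped. The fold of MYO5B-knockout over control was 1.16 (95% confidence interval 0.718 to 1.88), a log2 change of 0.22 that lies below the median of all genes and turned to -0.074 after median-ratio scaling. The log2 change was 0.16 without the few-gene pair (limma's adjusted p = 0.721, against 0.763 with all libraries) and 0.40 without the Xist pair (adjusted p = 0.380).

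Ccng1 encodes cyclin G1, a p53-induced regulator of the MDM2 feedback loop, and lies on the minus strand of chr11:40748552-40755311 (ENSMUSG00000020326). Its values were 3.97, 11.7 and 9.01 FPKM in the control mice, 5.51, 20.4, 17.7 and 14.1 FPKM across the MYO5B-knockout mice and 14.02, 8.97 and 5.51 FPKM across the LPA-treated mice, in the order of mouse numbers given above. MYO5B-knockout mice 5, 6 and 7 thus lay above all control mice and mouse 3 did not, so the groups overlapped. The fold over control was 1.72 (95% confidence interval 0.750 to 3.95, limma's adjusted p = 0.490). The log2 change was 0.78 with all libraries, 0.74 without the few-gene pair and 1.19 without the Xist pair (limma's adjusted p = 0.146). The medians over all genes in these fits were 0.29, 0.21 and 0.49. For LPA-treated minus MYO5B-knockout, Ccng1 was at -0.54 with all libraries, and at -0.95 and -1.28 without these pairs.

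Mdm2, the feedback inhibitor of p53, lies on the minus strand of chr10:117688888-117710758 (ENSMUSG00000020184). It showed 6.19, 16.6 and 17.5 FPKM in control mice, 7.03, 23.3, 25.1 and 17.9 FPKM across the MYO5B-knockout mice and 17.9, 20.46 and 13.5 FPKM across the LPA-treated mice. As for Ccng1, the MYO5B-knockout mice other than mouse 3 exceeded all controls, mouse 7 only narrowly (17.9 against 17.5 FPKM). Mouse 3 was the lowest of its group for 67.8% of all genes, and how many genes share this pattern was not counted. The log2 change was 0.43 (95% confidence interval of the fold 0.623 to 2.92, limma's adjusted p = 0.695), with 0.36 without the few-gene pair and 0.84 without the Xist pair (adjusted p = 0.405 and 0.244).

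Of the apoptosis genes, Bbc3 encodes the BH3-only protein PUMA and Bax the pore-forming effector it helps to activate. Bbc3 (ENSMUSG00000002083, chr7:16309616-16318205, plus strand) was at 0.948, 4.12 and 3.49 FPKM in control mice, 3.78, 8.505, 2.83 and 3.25 FPKM across the MYO5B-knockout mice and 6.60, 7.30 and 5.09 FPKM across the LPA-treated mice. The LPA-treated mice all exceeded the control mice, and in the MYO5B-knockout group mouse 5 lay above the other 3. For MYO5B-knockout minus control the log2 change of Bbc3 was 0.76, and it was 0.17 without the few-gene pair and 0.80 without the Xist pair (limma's adjusted p = 0.513, 0.840 and 0.415). For LPA-treated minus control it was 1.34 (limma's adjusted p = 0.293), and 0.71 without the few-gene pair (adjusted p = 0.338; 0.225 to 0.554 when single mice were left out).

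Bax (ENSMUSG00000003873, chr7:45461695-45466898, minus strand) varied little among control mice, at 52.8, 51.6 and 53.2 FPKM. It was at 52.0, 78.2, 49.3 and 62.4 FPKM across the MYO5B-knockout mice and at 67.7, 66.8 and 92.6 FPKM across the LPA-treated mice, which did not overlap with control. The log2 change of LPA-treated over control mice was 0.51 (limma's adjusted p = 0.376) beside a median of 0.41 over all genes, and it was 0.14 after median-ratio scaling. For MYO5B-knockout minus control it was 0.18, and -0.11 after that scaling, with 0.25 without the few-gene pair and 0.24 without the Xist pair. Bax, Bbc3 and Sesn2 were the members whose LPA-treated and control values did not overlap in the upward direction, and the groups of that comparison did not overlap for 26.9% of all genes.

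Phlda3, a repressor of AKT signalling, and Trp53inp1, a cofactor of stress-induced apoptosis and autophagy, were low. They lie on the plus strands of chr1:135766119-135769136 (ENSMUSG00000041801) and chr4:11156431-11174379 (ENSMUSG00000028211). Phlda3 had 0.631, 0.362 and 0.438 FPKM in control mice, 0.573, 2.43, 0.477 and 0.433 FPKM across the MYO5B-knockout mice and 0.598, 0.685 and 0.366 FPKM across the LPA-treated mice. Trp53inp1 had 0.267, 1.49 and 1.89 FPKM, then 0.504, 3.26, 1.05 and 0.677 FPKM, and then 1.52, 1.67 and 0.995 FPKM in these groups. In both genes MYO5B-knockout mouse 5 exceeded all other libraries. The other MYO5B-knockout mice lay inside the control range for Trp53inp1 and for Phlda3. For MYO5B-knockout minus control the log2 changes were 0.14 for Trp53inp1, which turned to -0.10 after median-ratio scaling, and 0.59 for Phlda3, with 95% confidence intervals of the fold of 0.354 to 3.44 for Trp53inp1 and 0.585 to 3.85 for Phlda3. Without the few-gene pair the log2 changes were -0.30 for Trp53inp1 and 0.88 for Phlda3, and without the Xist pair 0.46 and 0.70.

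Sesn2 encodes sestrin 2, a brake on mTORC1 that is also induced by the amino acid stress factor ATF4, and lies on the minus strand of chr4:132492032-132510501 (ENSMUSG00000028893). Its values were 0.287, 2.06 and 2.00 FPKM in control mice, 0.447, 7.51, 3.32 and 2.39 FPKM across the MYO5B-knockout mice and 6.02, 2.58 and 2.31 FPKM across the LPA-treated mice. The tamoxifen-treated and control mice overlapped, through MYO5B-knockout mouse 3 alone, while 12.4% of all genes showed no overlap. The share of all genes that separate without the 2 libraries with few genes was not counted. The log2 change for all tamoxifen-treated minus control mice was 1.26 (limma's adjusted p = 0.413), the highest among the members, and 0.80 without the few-gene pair (adjusted p = 0.306; 0.132 the smallest under any alternative). For MYO5B-knockout minus control it was 1.02, and 0.91 without the few-gene and 1.74 without the Xist pair (limma's adjusted p = 0.597, 0.315 and 0.185). Gm12981 overlaps Sesn2 on the same strand, but its 17 reads in all libraries were 0.891% as many as those of Sesn2.

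Eda2r, the ectodysplasin A2 receptor (ENSMUSG00000034457, chrX:97333840-97377216, minus strand), did not pass the filter on low values. Control mice 2, 4 and 5 gave 0, 3 and 0 Eda2r reads. MYO5B-knockout mice 3, 5, 6 and 7 gave 0, 11, 10 and 5 reads, and LPA-treated mice 1, 4 and 5 gave 5, 1 and 1. A count of 0 allows up to 3 reads. Fitted without the filter, Eda2r had a log2 change of 0.54 for MYO5B-knockout minus control (limma's adjusted p = 0.499).

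Fas, the death receptor that starts the extrinsic apoptosis pathway, had the only negative log2 change among the members in comparisons with control. It lies on the plus strand of chr19:34290659-34327770 (ENSMUSG00000024778). Fas stood at 11.03, 15.5 and 11.6 FPKM in control mice 2, 4 and 5 (12.7 ± 2.42, SD, n = 3), at 1.23, 3.28, 4.64 and 9.52 FPKM among MYO5B-knockout mice 3, 5, 6 and 7 (4.67 ± 3.52, SD, n = 4) and at 4.02, 3.69 and 3.89 FPKM among LPA-treated mice 1, 4 and 5 (3.87 ± 0.161, SD, n = 3). All 7 tamoxifen-treated mice were below all 3 control mice, and MYO5B-knockout mouse 7 came closest to control. The groups of all tamoxifen-treated and control mice did not overlap for 12.4% of all genes.

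The fold of MYO5B-knockout over control for Fas was 0.299 (95% confidence interval 0.127 to 0.705), which missed the threshold (limma's adjusted p = 0.138). It passed after median-ratio scaling (-2.04, limma's adjusted p = 0.0448), quantile normalization (-1.98, adjusted p = 0.0379) and by DESeq2 (-1.80, adjusted p = 0.00894), and not by edgeR (-1.74, adjusted p = 0.0973). With control mouse 2 and MYO5B-knockout mouse 3 left out, the log2 change was -1.33 (limma's adjusted p = 0.0816), without the Xist pair it was -1.24 (adjusted p = 0.123), and it ranged from -2.19 to -1.24 with single mice left out (adjusted p = 0.0647 to 0.305). For all tamoxifen-treated minus control mice it was -1.71 (limma's adjusted p = 0.0886) and passed in 7 of 22 alternatives. It passed there when both libraries with few genes were left out (-1.55, adjusted p = 0.0274) and by edgeR (-1.90, adjusted p = 0.0321).

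Like Fas, which lymphocytes carry as well as epithelial cells, most tested immune markers had negative log2 changes in MYO5B-knockout mice. Of the 19 tested genes of a list of 20 immune markers, limma called Gzma, Cd79a and Cd7 lower in MYO5B-knockout mice and none higher. These 3 are named after their values were seen, and 2.01% of all genes were called. The list median was -1.97 on the log2 scale, and 4 of the 19 changes were positive, up to 0.997. The summed FPKM of the list ran from 1735 to 3206 in control mice, from 64.3 to 1206 in MYO5B-knockout mice and from 178 to 296 in LPA-treated mice. Without Cd74 and H2-Aa, which epithelial cells can express, the other 18 markers summed to 339 to 474 FPKM in control mice and to 18.8 to 142 FPKM in the tamoxifen-treated mice. MYO5B-knockout mouse 7 had the highest Fas and the highest sum of these 18 among the tamoxifen-treated mice. The lower ends did not match. MYO5B-knockout mouse 3 had the lowest Fas (1.23 FPKM) at a sum of 54.3 FPKM, and mouse 5 had the lowest sum (18.8 FPKM) at a Fas level of 3.28 FPKM. None of the 20 markers was at 0 in every library. The part of immune cell RNA in the Fas result was not tested, and in these bulk samples fewer cells of a type and less RNA per cell cannot be told apart.

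**Figure D2:**
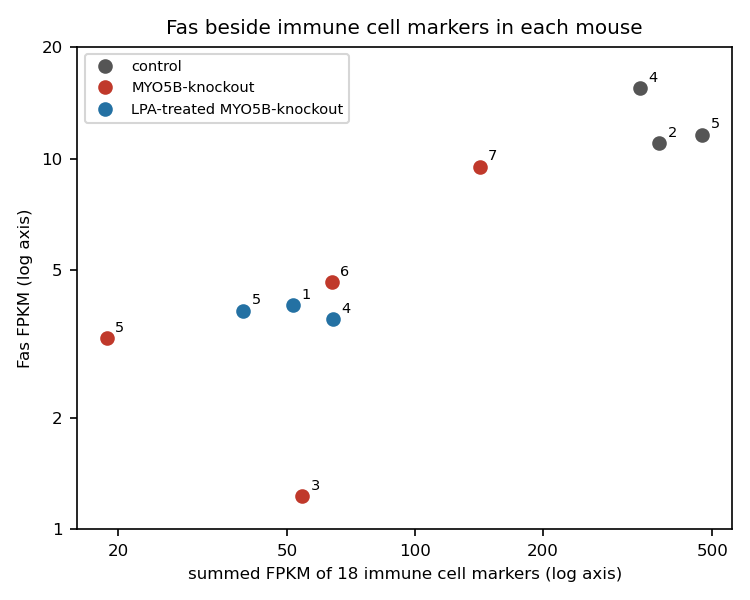
Fas FPKM against the summed FPKM of 18 immune cell markers in each mouse, both on log axes, with mouse numbers beside the points and colours for the 3 groups. The control mice lie at the upper right, at 339 to 474 FPKM of immune markers, and MYO5B-knockout mouse 7 lies nearest to them.

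Between LPA-treated and MYO5B-knockout mice, which both received tamoxifen, no member was called by limma, as for 0 genes in all (0% of those tested). At an unadjusted p of 0.05, 459 genes and none of the members passed, edgeR called 0 genes and DESeq2 7 genes with no member among them. The members' log2 changes ran from -0.54 for Ccng1 to 0.58 for Bbc3, with a median of 0.33 beside 0.11 over all genes. Without MYO5B-knockout mouse 3 and LPA-treated mouse 1, the median was -0.39, beside -0.18 over all genes. No member was without overlap between these groups, as against 4.16% of all genes. The 95% confidence interval of the log2 change reached from -0.36 to 1.03 for Cdkn1a. It includes 0, and changes within this range are compatible with the values of these mice.

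For the LPA-treated mice against control, 2.32% of genes were called by limma, and for all tamoxifen-treated mice against control 4.44%. Neither set of calls held a member. At an unadjusted p of 0.05, Bbc3 and Fas passed in the first, as did 2582 of the 15729 genes tested. Fas alone of the members passed in the second, where 3213 of all genes did. The calls were 243 higher and 122 lower genes in the first comparison (221 and 269 after median-ratio scaling) and 441 and 257 in the second (373 and 544 after it). By DESeq2 Fas was called in both, and by edgeR in the second. All comparisons with control share the same 3 control mice, so their values are set side by side and do not support each other. Cdkn1a gave log2 changes of 0.22, 0.56 and 0.39 for MYO5B-knockout, LPA-treated and all tamoxifen-treated minus control. In the same order Mdm2 gave 0.43, 0.48 and 0.46, Bax 0.18, 0.51 and 0.34, and Bbc3 0.76, 1.34 and 1.05. Ccng1 gave 0.78, 0.24 and 0.51 and Phlda3 0.59, 0.16 and 0.37, where the values for LPA-treated minus control turned to -0.13 and -0.16 after median-ratio scaling. Trp53inp1 gave 0.14, 0.48 and 0.31, and Sesn2 gave 1.02, 1.498 and 1.26. With control mouse 2 and MYO5B-knockout mouse 3 left out, Fas was called lower in LPA-treated than in control mice (-1.77, limma's adjusted p = 0.0277; 0.0042 to 0.409 over the alternatives), and no other member was called.

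**Figure D3:**
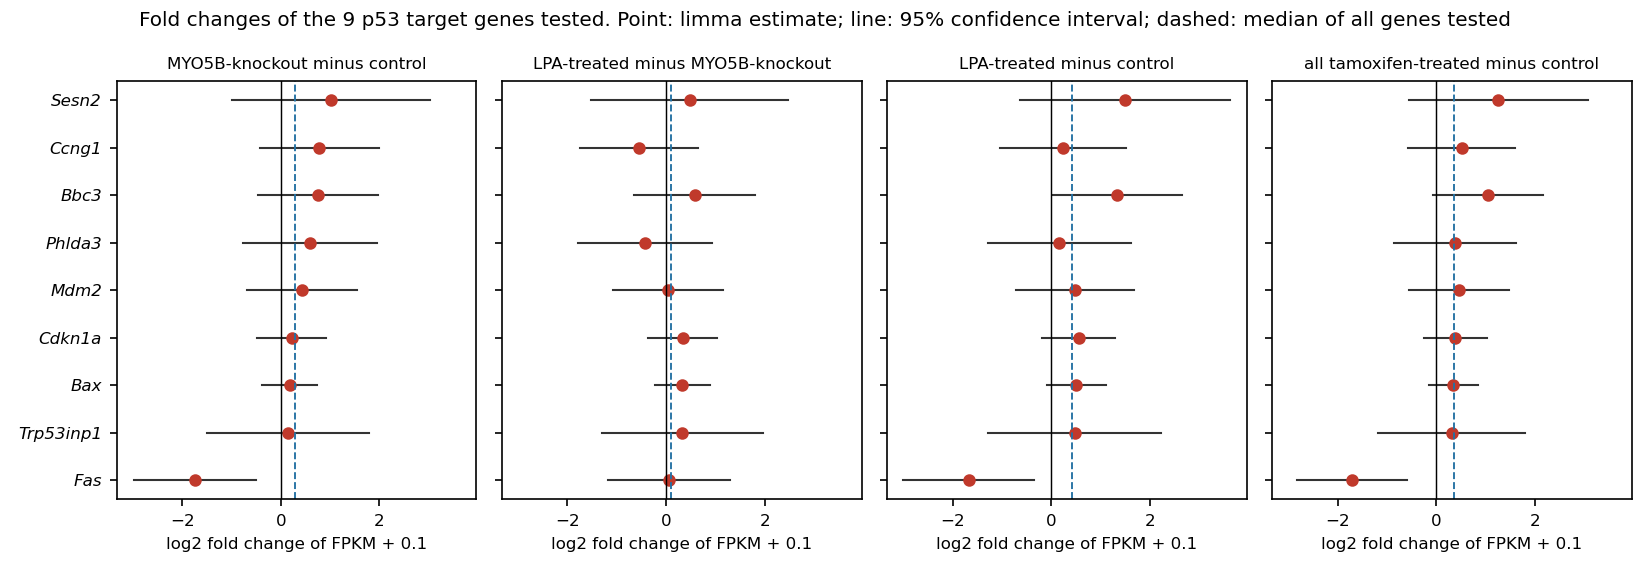
Log2 fold change of FPKM + 0.1 for the 9 tested p53 target genes in 4 comparisons, with points for limma's estimate, lines for the 95% confidence interval, and a dashed line at the median of all genes tested. Apart from Fas in the 3 comparisons with control and Bbc3 in LPA-treated minus control, the intervals include 0, and points for Cdkn1a and Bax lie close to the dashed line.

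The members also varied between mice of a group. MYO5B-knockout mouse 5 was the highest of its group for 7 of the 9 tested members, against 39.3% of all genes. Its Phlda3 level was 4.23 times that of the next MYO5B-knockout mouse, its Trp53inp1 level 3.09 times, its Sesn2 level 2.26 times and its Bbc3 level 2.25 times, whereas Cdkn1a differed by 1.03 times. Control mouse 2 was the lowest of its group for 7 of the 9, and MYO5B-knockout mouse 3 for 6 of the 9, where these libraries were also the lowest for 72.5% and 67.8% of all genes.

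Over the 10 libraries the genes closest in pattern to Cdkn1a were Lamtor1, Zfand3 and Map4, with root mean square differences of 0.105, 0.111 and 0.115 on the log2 scale, after each gene was centred on its mean. The spread of Cdkn1a itself was 0.387 on that scale. For Mdm2, with a spread of 0.643, the closest were Cdk8, Map7 and Yme1l1 at 0.112, 0.123 and 0.134. No other member was among these nearest genes, since members were left out of the search.

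A list of 34 other p53 targets, of which 32 were tested, was set beside the members. The part of p53 in the levels of these genes was not tested. In MYO5B-knockout against control mice 0 rose and 2 fell by limma (2.01% of all genes called), and the list's median was 0.39 beside 0.29 over all genes. In all tamoxifen-treated against control mice 3 rose and 2 fell (4.44% of all genes called, median 0.46 beside 0.36), and in LPA-treated against control mice 2 rose and 2 fell (2.32% of all genes). With control mouse 2 and MYO5B-knockout mouse 3 left out, these counts were 2 and 3, 4 and 3, and 2 and 4, while 6.52%, 11.3% and 9.98% of all genes were called. Without the Xist pair they were 1 and 2, 2 and 2, and 1 and 1.

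Sesn1 and Dcxr fell. Sesn1, the sestrin related to Sesn2, stood at 26.8, 34.9 and 38.6 FPKM in control mice, at 4.81, 9.50, 6.39 and 5.51 FPKM across the MYO5B-knockout mice and at 6.72, 8.17 and 6.23 FPKM across the LPA-treated mice. Its log2 change was -2.36 (limma's adjusted p = 0.0061), and it passed in 21 of 23 alternatives. Dcxr, which encodes a xylulose reductase, stood at 57.8 to 72.6 FPKM in control mice, 13.8 to 17.99 FPKM across the MYO5B-knockout mice and 15.6 to 32.5 FPKM across the LPA-treated mice, with a log2 change of -1.98 (limma's adjusted p = 0.00954). Both genes were separated from control without any overlap. The next lowest log2 changes were those of Gadd45a, a growth arrest gene (-1.21), and Susd6 (-0.71), listed under the symbol 4933426M11Rik, and neither was called.

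At the upper end, Pmaip1, which encodes the BH3-only protein NOXA, was at 15.6, 24.3 and 20.9 FPKM in control mice, at 37.4, 63.5, 40.9 and 30.2 FPKM across the MYO5B-knockout mice and at 58.7, 69.8 and 74.9 FPKM across the LPA-treated mice. All 7 tamoxifen-treated mice were above control. Pmaip1 rose in LPA-treated (1.75, limma's adjusted p = 0.0214) and in all tamoxifen-treated mice (1.40, adjusted p = 0.0202), and was not called in MYO5B-knockout mice (1.05, adjusted p = 0.102).

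Gdf15, a secreted stress cytokine, was at 0, 1.68 and 0.702 FPKM in control mice, at 6.74, 11.1, 2.03 and 1.89 FPKM across the MYO5B-knockout mice and at 14.3, 10.9 and 25.6 FPKM across the LPA-treated mice. It rose in all tamoxifen-treated mice (3.98, limma's adjusted p = 0.0309), with a log2 change of 2.67 when both libraries with few genes were left out (adjusted p = 0.0337) and an adjusted p of 0.0632 without the pair of libraries with Xist, and in LPA-treated mice (4.93, adjusted p = 0.0361). Gtse1, a G2 and S phase gene that restrains p53, rose in all tamoxifen-treated mice (1.65, limma's adjusted p = 0.0449; 0.0564 after median-ratio scaling). In MYO5B-knockout against control mice the 4 highest log2 changes of the list were 3.02 for Gdf15, 2.00 for the kinase gene Plk3, 1.93 for Gtse1 and 1.81 for the phosphatase gene Ppm1d, and limma called none of them. Gtse1 passed there in 7 of 23 alternatives, among them those without the few-gene pair (limma's adjusted p = 0.0446) and without the Xist pair (0.0388), Plk3 in 2, and Gdf15 and Ppm1d in 1 each. Of the whole list DESeq2 called 4 higher and 2 lower genes for MYO5B-knockout minus control, where it called 11.6% of all genes, and edgeR 0 and 2.

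**Figure D4:**
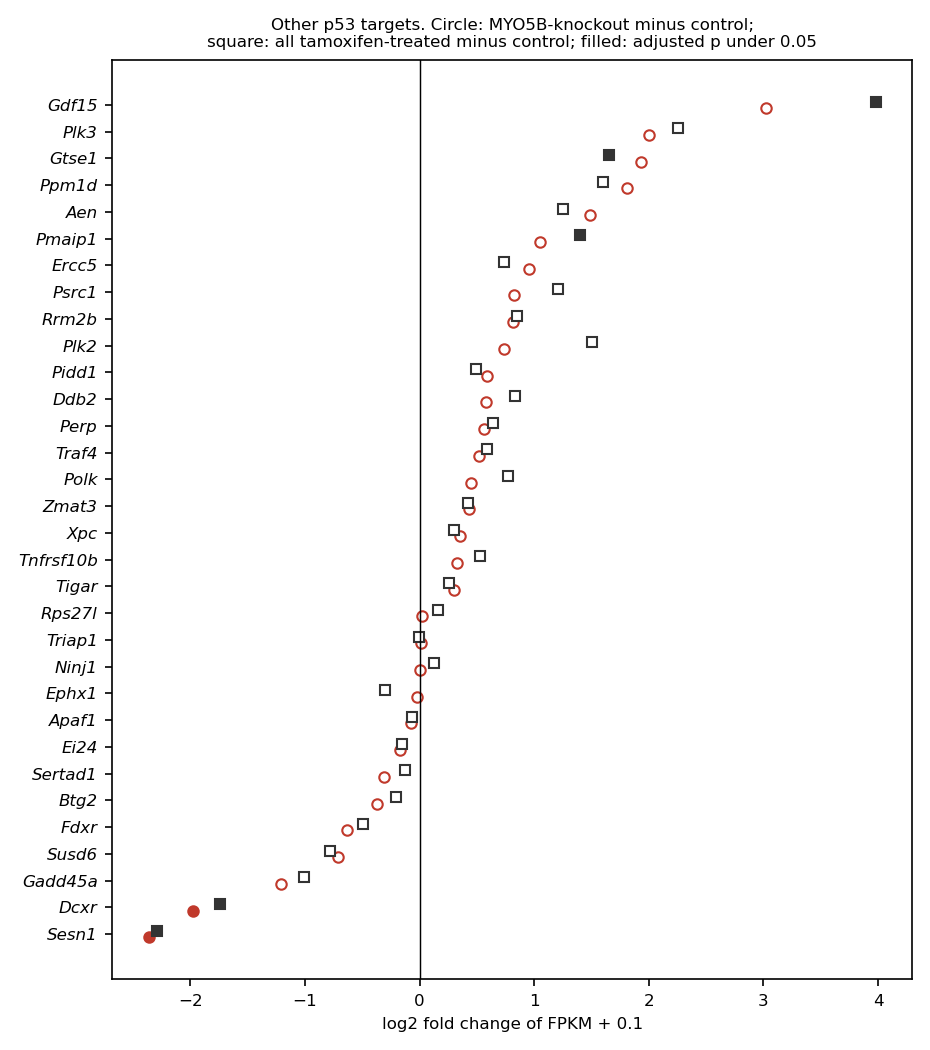
Log2 fold change of FPKM + 0.1 for the 32 tested genes of the list of other p53 targets, ordered by MYO5B-knockout minus control (circles), with all tamoxifen-treated minus control as squares and filled symbols for an adjusted p under 0.05. Sesn1 and Dcxr are filled at the lower end for both comparisons, and Gdf15, Gtse1 and Pmaip1 are filled at the upper end for all tamoxifen-treated mice only.

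Of 14 tested genes of p53 and its regulators 0 were called by limma in any comparison. At an unadjusted p of 0.05, 0 passed in MYO5B-knockout, 3 in LPA-treated and 2 in all tamoxifen-treated against control mice. Over all genes 2764, 2582 and 3213 passed in these comparisons. Of the 14, edgeR and DESeq2 each called 1 in the last 2 comparisons. Under limma 1 gene was higher for LPA-treated and for all tamoxifen-treated mice without the few-gene pair and 1 for all tamoxifen-treated mice without the Xist pair, and 1 was lower for LPA-treated mice after median-ratio scaling and quantile normalization and for all tamoxifen-treated mice after the latter. Trp53, which encodes p53, had a log2 change of 1.04 in MYO5B-knockout against control mice (limma's adjusted p = 0.444), with 1.74, 12.2 and 9.70 FPKM in control mice and 7.42, 16.2, 15.5 and 12.5 FPKM across the MYO5B-knockout mice. The inhibitor gene Mdm4 had 0.48, Cdkn2a, the ARF and p16 locus, 1.17, and the damage kinase genes Atm, Chek1 and Chek2 had 1.43, 1.01 and 0.21. With single mice left out, the change ranged from 0.18 to 1.55 for Trp53, 0.87 to 1.78 for Cdkn2a, 0.90 to 1.82 for Atm and 0.51 to 1.57 for Chek1.

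Among 10 tested CDK inhibitors and relatives of the members, Phlda2 rose in every comparison with control. It was at 1.06 to 2.03 FPKM in control mice and at 11.5 to 24.7 FPKM in tamoxifen-treated mice, with a log2 change of 3.06 in MYO5B-knockout mice (limma's adjusted p = 0.00263). Phlda1 had 1.49 there and rose in all tamoxifen-treated mice (1.88, limma's adjusted p = 0.0366; 0.147 after median-ratio scaling). The lowest were Cdkn1c, the CDK inhibitor p57, at -0.77 and Ccng2, cyclin G2, at -0.47, and neither was called.

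Of 11 tested Bcl-2 family genes 0 were called by limma in any comparison, while in MYO5B-knockout against control mice 2 passed an unadjusted p of 0.05 and edgeR and DESeq2 each called 1. Limma called 1 lower gene in that comparison after median-ratio scaling, after quantile normalization and without the few-gene pair, and likewise in all tamoxifen-treated mice, and 1 higher gene in LPA-treated mice without that pair. The ends of the list were Bik at 0.81 and Bok at 0.81, and Bmf at -1.54 and Bad at -0.88. Of 12 genes of death receptor signalling and caspases, Ripk3, a kinase of necroptosis, rose in all tamoxifen-treated mice (1.87, limma's adjusted p = 0.0221) and was at 1.73 in MYO5B-knockout mice (adjusted p = 0.0600). Its values were 11.02 to 24.4 FPKM in control and 27.7 to 88.4 FPKM in tamoxifen-treated mice. Ripk1 had 0.91 and the Fas ligand gene Fasl had -0.51, and neither was called.

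Because Sesn2 is also a target of ATF4, 12 ATF4 targets were set beside it. In MYO5B-knockout against control mice 4 rose and 0 fell by limma (2.01% of all genes called). The median log2 change of the list was 1.92 beside 0.29 over all genes. In all tamoxifen-treated against control mice 6 rose and 0 fell (4.44% of all genes called), with a median of 2.44 beside 0.36. By edgeR 5 and 6 of the 12 were called in these comparisons, where 443 and 818 genes were called in all. By DESeq2 7 and 8 were called, where 1830 and 2212 genes were called in all. Chac1, a glutathione-degrading enzyme gene, rose by 4.30 (limma's adjusted p = 0.0377) in MYO5B-knockout mice, a call kept in 9 of 23 alternatives and in 1 of the 10 fits with a single mouse left out (adjusted p up to 0.143). Psat1 of serine synthesis rose by 3.49 (limma's adjusted p = 0.00852), kept in 21 of 23, and Asns and Phgdh rose too. Psat1 was at 1.00 to 2.56 FPKM in control and 10.9 to 46.2 FPKM in tamoxifen-treated mice. The lowest of the list were Trib3 at -0.09 and Atf3 at 0.12, neither called. The part of ATF4 in the values of Sesn2, of the other members and of the list of other p53 targets was not tested.

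The p53 and p21 pathway is known to repress genes of G2 and mitosis. All 16 genes of that list had positive log2 changes in MYO5B-knockout against control mice, from 1.01 to 2.04, with a median of 1.31 beside 0.29 over all genes, and 0 were called by limma, with 10 at an unadjusted p under 0.05, 0 called by edgeR and 5 by DESeq2. At the ends were Ccnb1 and Ccna2, the cyclins B1 and A2, at 2.04 and 1.88, and Birc5 and Ube2c at 1.01 and 1.04. With control mouse 2 and MYO5B-knockout mouse 3 left out, 4 of the 16 were called, all higher, in a fit that called 6.52% of all genes, and DESeq2 called 11.6% of all genes. Of 16 genes of DNA break repair 0 were called by limma, with a median of 0.92, 7 at an unadjusted p under 0.05, 0 called by edgeR and 5 by DESeq2. Brca1 and Blm, which act in homologous recombination, had 2.09 and 2.02, and Prkdc and Lig4, which act in end joining, had -0.12 and 0.27. Without the few-gene pair 1 of the 16 was called, higher, which is no larger a share than the 6.52% of all genes.

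**Figure D5:**
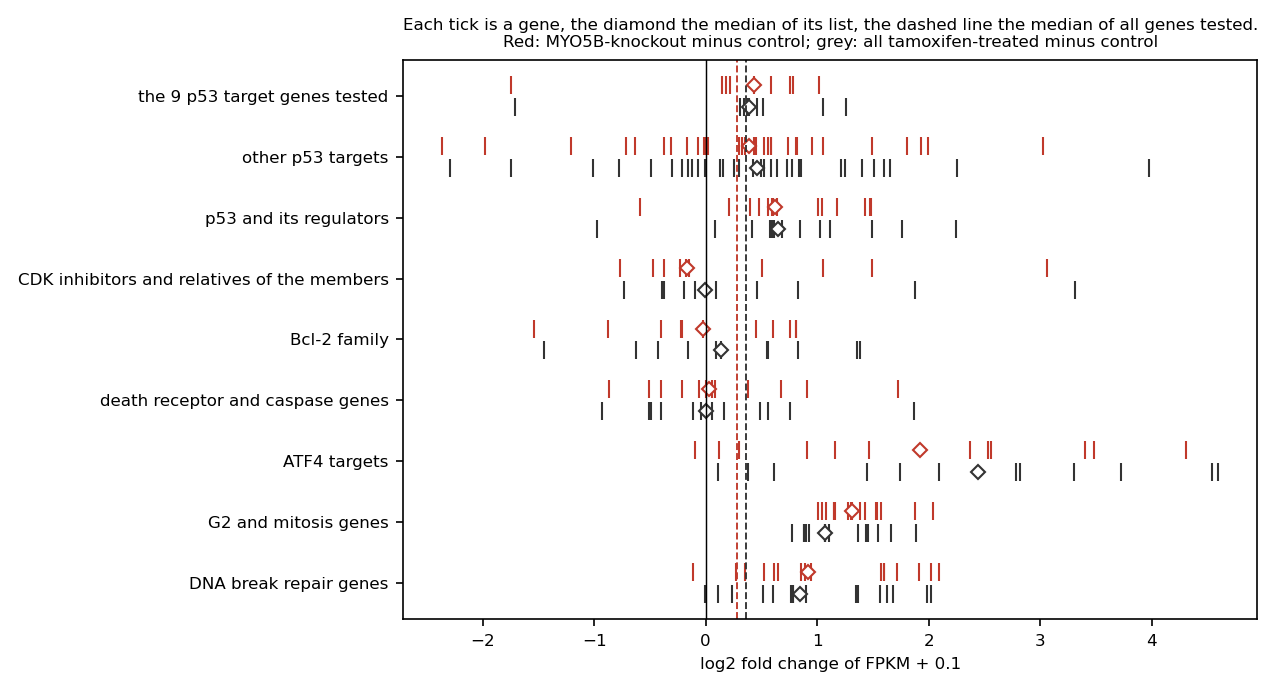
Log2 fold change of FPKM + 0.1 for the genes of 9 lists, with a tick for each tested gene, a diamond at the list's median and a dashed line at the median of all genes tested, in red for MYO5B-knockout minus control and in grey for all tamoxifen-treated minus control. The p53 target genes have medians of 0.43 and 0.39, near the dashed lines at 0.29 and 0.36, and the ATF4 targets have medians of 1.92 and 2.44.

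Markers of the other cell types were counted in MYO5B-knockout against control mice. Of 12 tested stromal and endothelial markers limma and edgeR called 0 and DESeq2 1, with 1 at an unadjusted p under 0.05, and the list of 15 summed to between 5.54 and 17.4 FPKM in all libraries. Of 16 enterocyte markers 1 fell and 0 rose by limma, with a list median of -0.82, 4 at an unadjusted p under 0.05, 3 called by edgeR and 5 by DESeq2. The marker that fell was Slc2a5, the fructose transporter, which is named after its value was seen. Of 10 crypt and stem cell markers limma and edgeR called 0 and DESeq2 1, with 2 at an unadjusted p under 0.05. The part of these cell types in the values of the p53 targets was not tested.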

How the data were processed

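RNA-seq libraries of jejunal epithelial cells from 10 mice were grouped by GEO's labels. The authors deposited FPKM per gene (Ensembl identifiers, GRCm38/mm10) and a table of the genes they called higher with LPA, with their read counts, used here for a check only. Its columns of fold changes and p-values, and 2 tables of enriched pathways, hold the authors' own comparisons and were not used. The submitters' processing notes name STAR 2.5, TopHat, HTSeq 0.6.1 and DESeq2. No scaling between libraries is stated in the sources used here. FPKM multiplied by gene length gave whole reads for 100% of values (tolerance 0.05), and 63 of 63 deposited read counts equalled the recovered reads. The log2 of FPKM + 0.1 was compared, for genes averaging 0.1 FPKM or more, in a single limma 3.58.1 model of the 3 groups with a trended prior variance (R 4.3.3). The model assumes like spread in all groups. Tests were two-sided, and p-values were adjusted by Benjamini-Hochberg over 15729 genes. A call is an adjusted p under 0.05. Fold changes are on the log2(FPKM + 0.1) scale, which understates changes of low genes. All tamoxifen-treated mice minus control is the mean of both knockout groups minus control. The recovered reads were fitted with edgeR 4.0.16 and DESeq2 1.42.0 as alternatives.

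The members and lists, and the tests, were chosen with earlier results of these data known. Named genes were all members, called genes and the 4 highest and 4 lowest of the other p53 targets, 6 regulators and the 2 highest and 2 lowest of each other functional list by MYO5B-knockout minus control. For the cell type markers only counts and sums are given, with called genes named where stated, which departs from the rule. The result of 1 gene that the rule names is not reported here. Tigar was listed as 9630033F20Rik and matched by identifier. The model was tested on simulated data with known changes. The simulation gave all genes the same spread and held no library that stands apart, so it does not cover the 2 libraries with few genes. No libraries within a group were near-identical. The labels give separate mice. Promoter sequences are from RefSeq (GRCm38.p6). The floor of 3 reads covers counting error only. The depth is 10949420 to 24470409 reads per mouse, and the annotation that sets gene lengths and the strand setting of the counting are not given in the sources used here.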

Additional observations from a re-analysis of the deposited data

Results flagged for a closer look

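In MYO5B-knockout mouse 5, Bbc3 stood at 8.505 FPKM and Phlda3 at 2.425 FPKM, each far from the other 3 mice of its group. The gap to the next mouse was 0.834 of the group's range for Bbc3 and 0.930 for Phlda3. A gap this large is met by chance in about 1 in 20 groups, and groups of 3 mice were not examined. Without this mouse the log2 change of Phlda3 in MYO5B-knockout against control mice was 0.063, and that of Bbc3 was 0.42. The mouse was neither of the libraries with few detected genes nor of the pair set apart by Xist.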

How the results depend on the processing

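With 3 or 4 mice a group, the number of mice and the 2 libraries with few genes limit these results. Of 1902 single-gene values under alternatives, 1681 kept their direction and side of the threshold, 75 no longer passed, 51 newly passed and 95 changed sign (67 of 815 for members); the cause was not tested. Genes called for MYO5B-knockout minus control were 188 with no filter, 598 with median-ratio scaling, 804 with quantile normalization, 188 with no trend, 50 with only the groups compared, 1032 without control mouse 2 and MYO5B-knockout mouse 3, and 1830 by DESeq2. For LPA-treated minus MYO5B-knockout DESeq2 called 7. For LPA-treated minus control the counts were 626 (quantile), 190 (only the groups compared), 1579 (without those 2 libraries) and 1489 (DESeq2), and for all tamoxifen-treated minus control 1204, 1790 and 2212 (quantile, without those 2 libraries, DESeq2). Of the members 1, Fas, was called for MYO5B-knockout minus control under median-ratio scaling, quantile normalization and DESeq2, for LPA-treated minus control without those 2 libraries and by DESeq2, and for all tamoxifen-treated minus control under these 4 and edgeR. With single mice left out the counts were 44 to 448 (MYO5B-knockout, lowest without control mouse 5), 75 to 719 (LPA-treated, lowest without LPA-treated mouse 5) and 154 to 1294 (all tamoxifen-treated, lowest without control mouse 5), each highest without MYO5B-knockout mouse 3, and members called 0 to 1 in the last 2. With the replicate block 0 genes were called in each comparison. Deviations of same-numbered mice from their group means correlated at -0.355 to 0.3. Only numbers 4 and 5 recur between groups, so these values cannot decide whether the numbers pair mice, and the main model does not pair them.

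Log2 changes that changed sign were, for MYO5B-knockout minus control, by DESeq2 Atf3 -0.035, Bax -0.12, Cdkn1a -0.070 and Trp53inp1 -0.11, by edgeR Bax -0.094, Cdkn1a -0.041 and Trp53inp1 -0.091, under median-ratio scaling Atf3 -0.17, Bax -0.11, Cdkn1a -0.074, Chek2 -0.080, Lig4 -0.0064 and Trp53inp1 -0.10, and under quantile normalization Atf3 -0.019, Chek2 -0.10, Lig4 -0.039 and Trp53inp1 -0.17. Prkdc was 0.033 with a pseudocount of 1. Without control mouse 2 and MYO5B-knockout mouse 3, Prkdc was 0.44 and Trp53inp1 -0.30, and without MYO5B-knockout mouse 3 and LPA-treated mouse 1, Prkdc was 0.46 and Trib3 0.029. For LPA-treated minus MYO5B-knockout, Fas and Mdm2 were -0.29 and -0.065 by DESeq2, -0.30 and -0.069 by edgeR and -0.0079 and -0.034 under median-ratio scaling, Fas was -0.0039 with a pseudocount of 1 and Mdm2 -0.059 under quantile normalization. Without the first pair of libraries Fas, Mdm2 and Sesn2 were -0.44, -0.36 and -0.24 there, and without the second pair -0.46, -0.39 and -0.66, with Trp53inp1 -0.053. For LPA-treated minus control, Ccng1 and Phlda3 were -0.10 and -0.22 by DESeq2, -0.061 and -0.19 by edgeR, -0.13 and -0.16 under median-ratio scaling and -0.059 and -0.28 under quantile normalization, and Trp53inp1 was -0.023 by DESeq2 and -0.0019 by edgeR. Without the first pair Ccng1, Mdm2 and Trp53inp1 were -0.21, -0.0029 and -0.28, and without the second Ccng1 was -0.088. For all tamoxifen-treated minus control Trp53inp1 was -0.065 (DESeq2), -0.046 (edgeR), -0.076 (quantile) and -0.29 (without the first pair). With the replicate block, LPA-treated minus MYO5B-knockout was -0.66 for Bbc3, -0.20 for Cdkn1a, -0.62 for Mdm2, -1.63 for Sesn2 and -1.36 for Trp53inp1, LPA-treated minus control -0.54 for Ccng1, -0.038 for Mdm2 and -0.36 for Trp53inp1, and MYO5B-knockout minus control 0.37 for Prkdc and 0.54 for Trib3.

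With single mice left out, MYO5B-knockout minus control ranged from -0.41 to 0.75 for Atf3, -0.031 to 0.40 for Cdkn1a, -0.18 to 0.72 for Chek2, -1.51 to 0.056 for Fasl, -0.025 to 0.52 for Lig4, -0.050 to 0.84 for Mdm2, -0.056 to 0.82 for Mdm4, -0.43 to 0.46 for Prkdc, -0.23 to 1.77 for Ripk1, -0.50 to 0.10 for Trib3 and -0.62 to 0.60 for Trp53inp1. LPA-treated minus control ranged from -0.21 to 0.58 for Ccng1, -0.0029 to 0.74 for Mdm2 and -0.28 to 0.94 for Trp53inp1, LPA-treated minus MYO5B-knockout from -0.44 to 0.52 for Fas, -0.36 to 0.25 for Mdm2, -0.65 to 0.10 for Phlda3 and -0.24 to 1.03 for Sesn2, and all tamoxifen-treated minus control from -0.026 to 0.72 for Mdm2 and -0.45 to 0.77 for Trp53inp1.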
